A study of Mus musculus with 6 samples.

Results

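The 35 genes described here encode the glycolytic enzymes, the glucose and lactate transporters, the regulators of glycolysis and a small group of hypoxia-responsive genes, and they were chosen by symbol for these functions. A gene was measured where a probe set carried its symbol and no other, and the probe set with the highest mean signal stood for the gene. By this rule 29 of the 35 genes were measured, among 22180 genes in all. Ero1l was found under its newer symbol Ero1a. Aldoa, Bnip3l and Ankrd37 lay only on probe sets that also name another gene and were kept out of the tests. No probe set was named for Gpi1, Eno1 and Pfkfb1 in the annotation used here. For these only the sequence before the transcription start was searched.

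The values come from 168FARN, a mouse breast cancer cell line, in 2 groups of 3 samples, with total RNA of each sample on 1 Affymetrix Mouse Gene 2.0 ST array. The RKIP knockdown cells stably expressed a short hairpin RNA against Raf kinase inhibitor protein (RKIP, encoded by Pebp1) from the vector pSUPER.retro-puro, and the control knockdown cells, a stable line of the same kind, one against firefly luciferase, so both groups carry the vector. The labels call the samples of a group independent, but they do not say whether a group is 1 clone or pool or how far apart its cultures were, so the spread between arrays may be partly technical. The labels name no low-oxygen treatment for either group.

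Glycolysis splits glucose into pyruvate in the cytosol, and lactate dehydrogenase turns pyruvate into lactate when it is not burnt in mitochondria. Many tumor cells run glycolysis hard even with oxygen present. When oxygen falls, the hypoxia-inducible factors (HIFs) escape hydroxylation and degradation and raise transcription of most glycolytic genes, of the angiogenic factor Vegfa and of genes such as Adm, Bnip3 and Ndrg1.

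HIFs bind a short core sequence, written here as ACGTG or GCGTG, and the 250 bases before the transcription start of each gene were searched for it on both strands, so that CACGTG counts on each strand as overlapping matches. Windows from RefSeq (build GRCm38.p6) were found for 32 of the 35 genes, 51 windows in all, since a gene can have several starts. Of these, 39 (76.5%) held at least 1 match, against 38.6% of all 32851 windows and 54.4% of the 12550 windows of genes measured above background. Mean GC content was 59.6%, 53.2% and 59.8% in the same order. ACGTG occurred in 43.1% of the windows of these genes against 16.6% of all windows and 21.4% of those of genes above background, and GCGTG in 56.9% against 28.2% and 43.2%. At least 3 matches stood in 21.6%, 6.58% and 11.5% of windows. The windows of Eno2, Tpi1 and Gpi1 held none, so 29 of the 32 genes had a match. That count by gene was not made over all genes. Windows of nearby starts can overlap, and for Eno1, Aldoa and Pfkm the same match was counted in more than 1 window. A match is a string of letters and was not tested as a binding site. The windows below are shown for the gene with the largest log2 change (Adm), for the genes of a lactate exporter and a phosphofructokinase subunit with lower values in RKIP knockdown (Slc16a3, Pfkl), and for the 2 genes with the most matches in 1 window (Ldha, Bnip3, 5 each). Each is on the strand of its gene and written 5′ to 3′, with matches in capitals. Adm lies at chr7:110627407-110627656 (plus strand), Slc16a3 at chr11:120948817-120949066 (plus), Pfkl at chr10:78009808-78010057 (minus), Ldha at chr7:46845554-46845803 (plus) and Bnip3 at chr7:138909507-138909756 (minus).
Adm: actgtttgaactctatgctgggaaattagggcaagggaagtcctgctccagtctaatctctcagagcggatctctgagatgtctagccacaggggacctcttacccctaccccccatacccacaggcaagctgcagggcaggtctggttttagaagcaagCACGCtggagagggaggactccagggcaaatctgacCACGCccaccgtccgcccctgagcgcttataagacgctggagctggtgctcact
Slc16a3: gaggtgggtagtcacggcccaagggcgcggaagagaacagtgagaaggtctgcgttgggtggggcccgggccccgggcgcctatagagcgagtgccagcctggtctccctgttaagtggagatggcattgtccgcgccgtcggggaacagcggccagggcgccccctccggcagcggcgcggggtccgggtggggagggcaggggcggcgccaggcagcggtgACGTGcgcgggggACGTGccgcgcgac
Pfkl: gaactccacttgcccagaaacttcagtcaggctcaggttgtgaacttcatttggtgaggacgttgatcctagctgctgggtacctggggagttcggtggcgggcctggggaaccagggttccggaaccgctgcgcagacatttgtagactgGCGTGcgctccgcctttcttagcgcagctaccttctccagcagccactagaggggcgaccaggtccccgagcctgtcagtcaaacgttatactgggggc
Ldha: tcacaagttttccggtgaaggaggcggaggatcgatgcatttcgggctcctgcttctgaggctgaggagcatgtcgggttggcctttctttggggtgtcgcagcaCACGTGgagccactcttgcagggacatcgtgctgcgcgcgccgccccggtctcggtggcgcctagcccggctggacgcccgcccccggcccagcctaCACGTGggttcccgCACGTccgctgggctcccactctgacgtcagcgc
Bnip3: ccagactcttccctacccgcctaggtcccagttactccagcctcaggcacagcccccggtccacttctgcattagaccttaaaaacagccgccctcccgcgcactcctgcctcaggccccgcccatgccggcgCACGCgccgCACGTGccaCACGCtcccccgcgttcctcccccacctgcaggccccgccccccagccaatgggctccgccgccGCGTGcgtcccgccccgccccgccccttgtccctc

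Pebp1, the targeted gene, had log2 intensities of 7.14, 6.91 and 6.60 in RKIP knockdown and 7.72, 7.70 and 7.72 in control knockdown. The groups did not overlap, and the log2 change was -0.83 (limma, adjusted p = 0.0996), 43.7% lower. The arrays had similar distributions, and no pair was identical. Background was set at 5.33 on the log2 scale, below which 95% of 1105 olfactory receptor genes had their mean. Of marker genes fixed by hand, 8 of 11 epithelial ones (Krt8 among them) and 8 of 9 mesenchymal ones (Vim among them) exceeded it, as did 3 of 10 myeloid (Cd68, Lyz2, Csf1r), 2 of 8 lymphoid (Nkg7, Cd79a) and 1 of 6 endothelial ones (Pecam1). Epcam, the pan-leukocyte marker Ptprc, Cd3e and Cdh5 were below it. Marker sums on the linear scale were 3399 to 3708 in RKIP knockdown and 2640 to 2921 in control knockdown for 8 fibroblast genes (5 above background), 1653 to 1779 and 1780 to 1841 for 11 epithelial genes, 460 to 507 and 479 to 492 for 10 myeloid genes, 258 to 283 and 255 to 277 for 8 lymphoid genes, and 166 to 174 and 166 to 194 for 6 endothelial genes. On every RKIP knockdown array the fibroblast sum was higher and the epithelial sum lower than on any control. For the epithelial sum the nearest arrays read 1779 and 1780. The sums of 9 mesenchymal genes overlapped (28941 to 29554 and 29244 to 29824), but single genes of that list moved both ways. Snai2 (0.89 on the log2 scale; limma, adjusted p = 0.0845), Zeb1 (0.22) and Fn1 (0.05) were apart and higher. Vim (-0.09) and S100a4 (-0.07) were apart and lower, and Cdh2, Snai1, Twist1 and Sparc overlapped. Within the epithelial list 8 log2 changes were below 0 and 3 above. Krt8, with the strongest signal, overlapped (-0.05). Krt18 (-0.35) and Esrp1 (-0.30, below background) were apart and lower. Cdh1 (0.24), Cldn4 (0.24) and Epcam (0.20) overlapped. Within the fibroblast list Col1a1 (0.69 on the log2 scale), Pdgfra (0.35) and Pdgfrb (0.32) were apart and higher, and Col1a2 (-0.05), Dcn (-0.14) and Dpt (-0.08) overlapped. The part of these markers in the values below was not tested. In bulk RNA a change in the number of cells of a type and a change in RNA per cell cannot be told apart.

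All 29 measured glycolysis and hypoxia genes gave signal above background in 168FARN cells, and none passed the test between RKIP knockdown and control knockdown. With limma and Benjamini-Hochberg adjustment over all genes at a threshold of 0.05, 0 rose and 0 fell, where 0.203% of all genes rose and 0.0496% fell. At an unadjusted p under 0.05, 1 was higher (3.45%, against 5.01% of all genes) and 3 were lower (10.3%, against 5.09%). By analysis of variance with the cutoffs that the authors used (1.5-fold and p under 0.01) 0 were higher and 0 lower, beside 0.261% and 0.0676% of all genes. An exact permutation test of 3 arrays against 3 cannot give a p below 0.1.

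The log2 changes (RKIP knockdown minus control knockdown) of the 29 genes lay between -0.28 and 0.36, with a median of -0.03 against -0.01 over all genes and 0.00 over genes above background. For 18 of them (62.1%) the change was below 0, as for 51.9% of all genes and 48.5% of those above background. Their median standard error was 0.07. The 95% interval of the change lay inside 1.5-fold in either direction for 28 of 29 (96.6%), as for 96.1% of genes above background, and Aldoc was the exception. Groups did not overlap for 3 genes with higher values (10.3%) and 6 with lower values (20.7%), where 8.67% of all genes were apart upward and 8.67% downward, and 12.4% and 10.4% of those above background. All 6 genes apart downward are transporters or enzymes of glycolysis, the part of the set that holds 23 of the 29 genes. The 3 higher genes are Adm, Ndrg1 and Pfkfb2, of which Pfkfb2 is also counted with glycolysis. Among the 23 measured genes of glycolysis, the change was above 0 in 8 and below 0 in 15. Among the 6 other hypoxia genes it was above 0 in 3 and below 0 in 3.

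**Figure D1:**
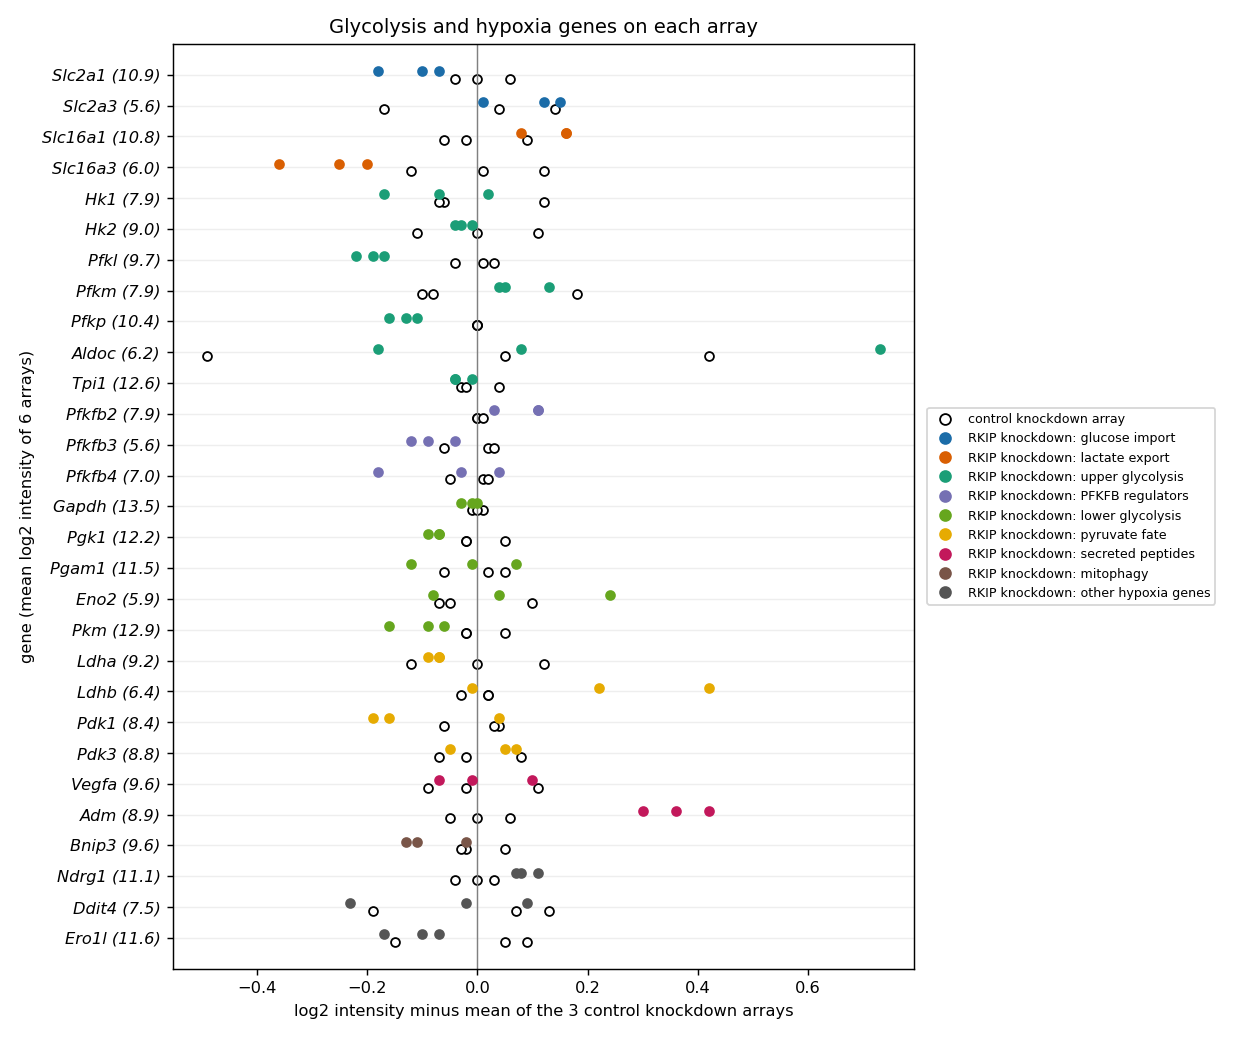
Log2 intensity on each of the 6 arrays minus the mean of the 3 control knockdown arrays, 1 row per measured gene ordered by role, with the mean log2 intensity in brackets; open points are control knockdown arrays, filled points RKIP knockdown arrays coloured by role, and equal values coincide. The groups overlap in 20 of the 29 rows, Adm stands to the right of its controls, and Aldoc spreads widest in both groups.

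Glucose enters the cell through the facilitative transporters Slc2a1 (GLUT1), the ubiquitous form, and Slc2a3 (GLUT3), a high-affinity form. Slc2a1 read 10.83, 10.94 and 10.91 in RKIP knockdown and 11.07, 11.01 and 10.97 in control knockdown. All RKIP knockdown arrays were below all controls, by a small margin, and the log2 change of -0.12 (SE 0.06, 95% interval -0.27 to 0.03) did not pass limma's test (adjusted p = 0.559). A second probe set of Slc2a1, near background, gave -0.13. Slc2a3, close to background, had means of 5.66 ± 0.08 and 5.57 ± 0.15 (SD, n = 3 each) that overlapped.

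Lactate leaves through the monocarboxylate transporters Slc16a1 (MCT1), which carries lactate and pyruvate in either direction, and Slc16a3 (MCT4), the exporter typical of glycolytic cells. Slc16a3 had the lowest log2 change of the 29 genes. Its log2 intensity was 5.89, 5.78 and 5.94 in RKIP knockdown and 6.15, 6.26 and 6.02 in control knockdown, not far above background. The groups were apart, with a log2 change of -0.28 (SE 0.08, 95% interval -0.47 to -0.08) that limma did not call (adjusted p = 0.361). A probe set that names both Csnk1d and Slc16a3 spanned only 9.76 to 9.88 and differed by -0.05, with its groups apart by a narrow margin. For Slc16a1 the arrays gave 10.77, 10.85 and 10.85 against 10.78, 10.67 and 10.63. Here the RKIP knockdown values were mostly the higher ones, with an overlap at the first array of each group, and the log2 change was 0.13 (95% interval -0.03 to 0.29; limma, adjusted p = 0.563).

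Hexokinases trap glucose by phosphorylation, and both measured forms overlapped between groups. Hk1, the housekeeping form, differed by -0.07 on the log2 scale (SE 0.08), and Hk2, the form induced in many tumors, by -0.03 (SE 0.07). A probe set that names Hk1 together with Hk1os read 6.63, 6.48 and 6.61 against 6.71, 6.71 and 6.72, apart with a log2 difference of -0.14.

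Phosphofructokinase commits sugar to glycolysis as a tetramer of liver (Pfkl), muscle (Pfkm) and platelet (Pfkp) subunits. The groups were apart for Pfkl and Pfkp and overlapped for Pfkm. Pfkl read 9.61, 9.66 and 9.64 in RKIP knockdown and 9.86, 9.84 and 9.79 in control knockdown. Every RKIP knockdown array was lower by more than the range of either group, and the log2 change was -0.19 (SE 0.06, 95% interval -0.33 to -0.06), 12.6% lower. It missed the test (limma, adjusted p = 0.343), but passed it when limma's prior variance was allowed to follow signal with robust fitting (adjusted p = 0.0278, a setting under which 1.38% of all genes rose and 0.96% fell). The other alternatives that kept all arrays gave up to 0.458. Pfkp read 10.28, 10.31 and 10.33 against 10.44 on each of the 3 control arrays. Its groups were also apart, with the tightest control values among the 3 subunits, and the log2 change was -0.13 (95% interval -0.26 to -0.01; limma, adjusted p = 0.477). Pfkm had means of 7.96 ± 0.05 and 7.89 ± 0.15 (SD, n = 3 each), which overlapped. Its log2 change was 0.07 (95% interval -0.14 to 0.28), so its direction could not be told.

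Aldolase and triosephosphate isomerase follow. Aldoc, the brain-type aldolase, was the least reproducible of the 29 genes. It read 5.91, 6.17 and 6.82 in RKIP knockdown and 6.14, 6.51 and 5.60 in control knockdown. The log2 change of 0.22 had an SE of 0.29 (95% interval -0.48 to 0.91), and it became -0.05 without RKIP knockdown replicate 3 and -0.03 without control knockdown replicate 3. Aldoa, the main aldolase of most cells, could be read only on a probe set shared with Aldoart1, where the log2 difference was -0.13. Tpi1, which interconverts the triose phosphates, differed by -0.03 (SE 0.06).

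PFKFB enzymes make and break the sugar bisphosphate that activates phosphofructokinase. Pfkfb2, the heart form, read 7.89, 7.97 and 7.97 in RKIP knockdown and 7.86, 7.86 and 7.87 in control knockdown. Its groups did not overlap, by a narrow margin, and the log2 change was 0.08 (95% interval -0.06 to 0.22; limma, adjusted p = 0.679). Pfkfb3 and Pfkfb4, the forms most associated with hypoxia and tumors, differed by -0.08 (SE 0.06) and -0.05 (SE 0.07) and overlapped. Pfkfb3 was close to background, with a mean of 5.6.

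The steps from Gapdh to Pkm turn triose phosphate into pyruvate and give the ATP of the pathway. Gapdh, the dehydrogenase often taken as a reference transcript, read 13.52, 13.53 and 13.50 in RKIP knockdown and 13.54, 13.52 and 13.53 in control knockdown. Its log2 change was -0.01 (95% interval -0.14 to 0.12; limma, adjusted p = 0.964), and it became 0.01 with arrays centred on their medians. Of its 10 other probe sets, alone or shared with other symbols, 9 overlapped between groups with log2 differences between -0.05 and 0.00, and 1, which names Gapdh together with the pseudogene Gapdh-ps15, had its groups apart at -0.22.

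Pgk1, the first ATP-making kinase of the pathway, read 12.22, 12.20 and 12.22 in RKIP knockdown and 12.27, 12.27 and 12.34 in control knockdown. The groups were apart by a margin of a few hundredths, and the log2 change was -0.08 (95% interval -0.21 to 0.05; limma, adjusted p = 0.671). Pkm, the pyruvate kinase of muscle and tumor cells, read 12.75, 12.82 and 12.85 against 12.89, 12.89 and 12.96. Again every RKIP knockdown array was the lower, with a log2 change of -0.10 (95% interval -0.25 to 0.04; limma, adjusted p = 0.613), and the probe set does not tell its spliced forms apart. Pgam1, the mutase, and Eno2, the neuronal enolase, overlapped, with log2 changes of -0.02 (SE 0.07) and 0.07 (SE 0.10).

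The fate of pyruvate is set by lactate dehydrogenase, whose A subunit is HIF-induced and whose B subunit dominates in oxidative tissue, and by the PDK kinases, which shut pyruvate out of mitochondria by inhibiting pyruvate dehydrogenase. Ldha read 9.16, 9.14 and 9.16 in RKIP knockdown and 9.35, 9.11 and 9.23 in control knockdown. The tight RKIP knockdown values lay inside the control range, with a log2 change of -0.08 (95% interval -0.26 to 0.10; limma, adjusted p = 0.758). Ldhb read 6.25, 6.68 and 6.48 against 6.28, 6.23 and 6.28. RKIP knockdown replicate 1 lay among the controls and the other 2 above them, giving 0.21 on the log2 scale (95% interval -0.05 to 0.47; limma, adjusted p = 0.571), and 0.10 without replicate 2 or 0.32 without replicate 1 of RKIP knockdown. Pdk1 and Pdk3 overlapped, with log2 changes of -0.11 (SE 0.08) and 0.02 (SE 0.07).

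**Figure D2:**
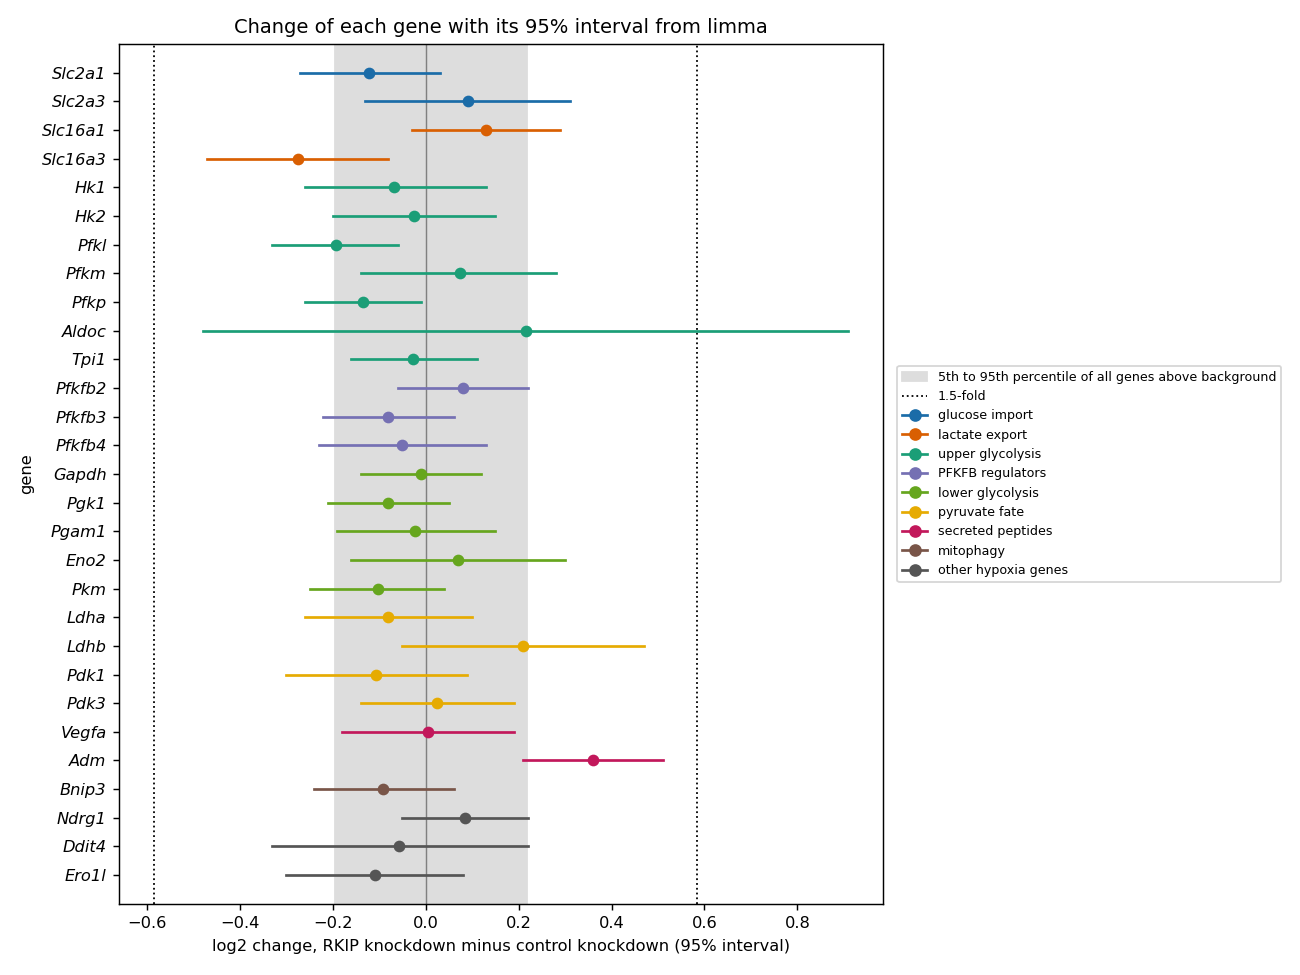
Log2 change of each measured gene (RKIP knockdown minus control knockdown; point) with its 95% interval from limma (line), coloured by role. The grey band spans the 5th to 95th percentile of the change over all 12724 genes above background, -0.20 to 0.22, and the dotted lines mark 1.5-fold; Adm and Slc16a3 fall outside the band, and Aldoc has the only interval that crosses a dotted line.

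Adm encodes adrenomedullin, a secreted vasodilator peptide made under hypoxia, and had the largest log2 change of the 29 genes. It read 8.99, 9.05 and 9.11 in RKIP knockdown and 8.75, 8.64 and 8.69 in control knockdown. Every RKIP knockdown array exceeded every control by more than the range of either group. The log2 change was 0.36 (SE 0.06, 95% interval 0.21 to 0.51), 1.28-fold, with an adjusted p of 0.122 in limma. It passed the threshold when only the 14786 genes left after removal of those with the lowest signal were fitted (adjusted p = 0.0415, where 0.785% of the genes rose and 0.271% fell) and with the variance trend and robust fitting together (adjusted p = 0.00166), and the other alternatives that kept all arrays gave up to 0.355. With any 1 array left out, the log2 change stayed between 0.33 and 0.39 and the adjusted p between 0.256 and 0.345. Vegfa, the main angiogenic growth factor and, like Adm, a HIF target, read 9.53, 9.70 and 9.59 against 9.51, 9.71 and 9.58. The ranges of its groups were nearly the same, and the log2 change was 0.00 (95% interval -0.18 to 0.19; limma, adjusted p = 0.988).

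Bnip3 and Bnip3l are outer-membrane receptors that mark mitochondria for removal. Bnip3 read 9.53, 9.64 and 9.55 in RKIP knockdown and 9.64, 9.71 and 9.63 in control knockdown. The groups overlapped, with a log2 change of -0.09 (95% interval -0.24 to 0.06; limma, adjusted p = 0.663). Bnip3l was readable only with its pseudogene, where the difference was -0.06.

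Ndrg1, a stress- and hypoxia-induced gene known as a metastasis suppressor in several tumors, read 11.17, 11.20 and 11.16 in RKIP knockdown and 11.09, 11.12 and 11.05 in control knockdown. The groups were apart by a few hundredths, and the log2 change was 0.09 (95% interval -0.05 to 0.22; limma, adjusted p = 0.656). A second Ndrg1 probe set differed by -0.07, and the mean of both gave 0.01. Ddit4 (REDD1), an inhibitor of mTORC1 signalling, read 7.27, 7.59 and 7.48 against 7.31, 7.63 and 7.57. Replicate 1 was the lowest in both groups, and the log2 change was -0.06 (SE 0.12). Ero1l, the oxidase that drives disulfide formation in the endoplasmic reticulum, differed by -0.11 (SE 0.08) and overlapped, and Ankrd37, readable only together with Lrp2bp, by 0.17.

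**Figure D3:**
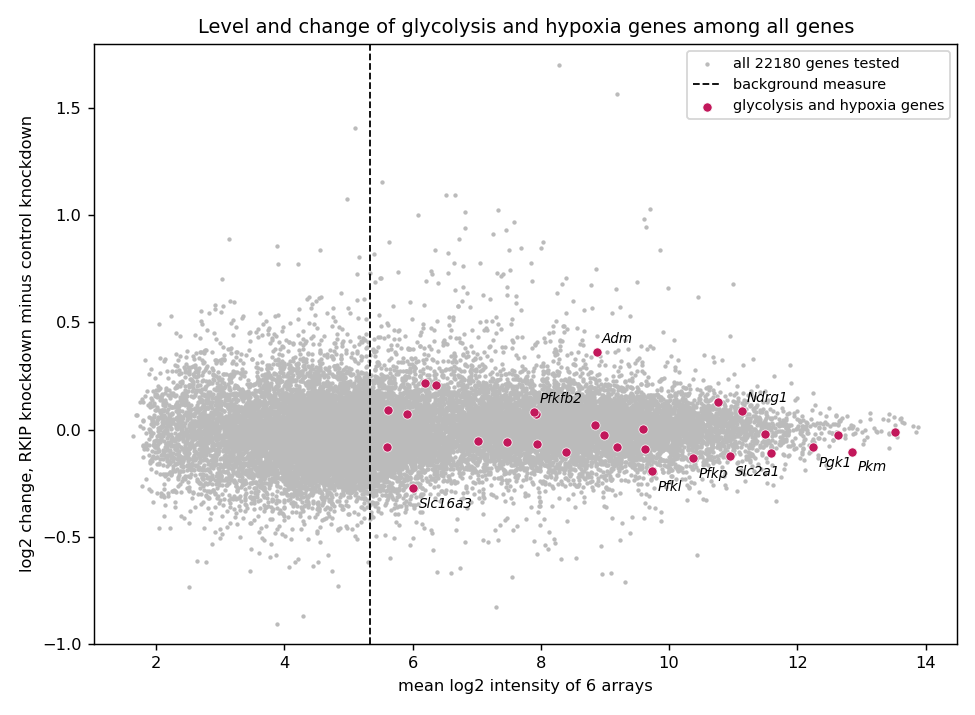
Log2 change (RKIP knockdown minus control knockdown, vertical) against the mean log2 intensity of the 6 arrays (horizontal) for all 22180 genes tested (grey) and the 29 measured glycolysis and hypoxia genes (red). All 29 lie to the right of the dashed background measure at 5.33, and named points are those whose groups did not overlap.

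Genes around these pathways were described through 12 further lists of 194 genes, of which 181 were measured, with a median log2 change of -0.03. By limma 1 of them rose and 0 fell, against 0.203% and 0.0496% of all genes; at an unadjusted p under 0.05, 10 were higher (5.52%, against 5.01% of all genes) and 19 lower (10.5%, against 5.09%). The gene that rose was Egln3 (PHD3), an oxygen-dependent prolyl hydroxylase that marks HIF alpha subunits for degradation and is itself a HIF target. It read 7.41, 7.20 and 7.38 in RKIP knockdown and 6.38, 6.36 and 6.20 in control knockdown. The groups were far apart, with a log2 change of 1.02 (SE 0.09), 2.03-fold, and an adjusted p of 0.0173 in limma. That call was lost with any 1 array left out, at an adjusted p between 0.0859 and 0.112, while the log2 change stayed between 0.96 and 1.08. Of all genes, 0 to 4 were then called higher, against 45 with all arrays. The call was also lost with analysis of variance (adjusted p = 0.106), which called 4 of all genes higher. Egln3 did pass the cutoffs that the authors used, 1.5-fold and p under 0.01 (analysis of variance, unadjusted p = 0.000313).

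The list of other HIF targets that held Egln3 had 33 measured genes, of which 3 were higher (9.09%, against 5.01% of all genes) and 5 lower (15.2%, against 5.09%) at an unadjusted p under 0.05, with a median log2 change of -0.05. Car9, the membrane carbonic anhydrase used as a hypoxia marker, differed by -0.20 (limma, adjusted p = 0.377), Egln1 by -0.16 (adjusted p = 0.430) and P4ha1, a collagen prolyl hydroxylase subunit, by 0.19 (adjusted p = 0.363). These 3 were named after their values were seen. Of the 15 measured genes for HIF subunits and their turnover, 0 passed either threshold in limma. Of all genes 0.203% rose and 0.0496% fell by adjusted p, and 5.01% and 5.09% by unadjusted p. Hif1a, the oxygen-regulated HIF subunit, differed by 0.13, with its groups apart (limma, adjusted p = 0.534). Epas1, its close relative, was below background and overlapped, at -0.19. Both were named for their role, outside the rule for named genes.

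Other carbohydrate pathways gave 0 calls in limma, where 0.203% of all genes rose and 0.0496% fell. Of 20 further glycolysis isoforms 0 were higher and 2 lower at an unadjusted p under 0.05, of 15 glycogen genes 1 and 3, and of 18 tricarboxylic acid cycle genes 0 and 2, while the 9 pentose phosphate genes, 7 gluconeogenesis genes and 12 genes of pyruvate entry into mitochondria gave 0 in both directions. Idh2, the mitochondrial isocitrate dehydrogenase, had a log2 change of -0.24 (limma, adjusted p = 0.267, and 0.0024 with the variance trend and robust fitting), Phkb, a phosphorylase kinase subunit, one of 0.20 (adjusted p = 0.361) and Pcx, pyruvate carboxylase, one of 0.17. The largest changes above background in other lists were -0.17 for Eno4, a testis-type enolase (-0.07 without control knockdown replicate 3), 0.13 for Rpia of the pentose phosphate pathway (0.03 without control knockdown replicate 2), -0.13 for Fbp2, the muscle fructose bisphosphatase, and -0.13 for Arnt2, a HIF partner subunit.

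Secreted factors and stress regulators gave 0 calls as well, against 0.203% of all genes higher and 0.0496% lower. In the list of VEGF and adrenomedullin genes, 14 measured, 3 were higher (21.4%, against 5.01% of all genes) and 1 lower (7.14%, against 5.09%) at an unadjusted p under 0.05. Vegfc, the lymphatic growth factor, had a log2 change of 0.49 (limma, adjusted p = 0.128, 0.0499 without the lowest-signal genes and 0.00393 with the variance trend and robust fitting), and Adm2, a relative of Adm, one of -0.45 (adjusted p = 0.236). Of the 16 genes of Ddit4 and stress regulators 3 were higher (18.8%, against 5.01% of all genes) and 5 lower (31.2%, against 5.09%) at that threshold, with a median log2 change of -0.13. Trib3, a pseudokinase induced by amino acid and endoplasmic reticulum stress, had -0.60 (limma, adjusted p = 0.264, and 0.0452 with the variance trend and robust fitting), and Sesn3, a sestrin, had 0.51 (adjusted p = 0.0813). Adm2 and Sesn3 were named after their values were seen. Mitophagy genes related to Bnip3 gave 0 higher and 1 lower of 13 (7.69%, against 5.09% of all genes) at an unadjusted p under 0.05. The largest change there was at Bnipl (-0.24, and -0.07 without RKIP knockdown replicate 3 or -0.48 without replicate 2). The NDRG and ERO1 families gave 0 of 9, against 5.01% of all genes higher and 5.09% lower. Their largest change was at the chaperone Hspa5 (0.14).

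**Figure D4:**
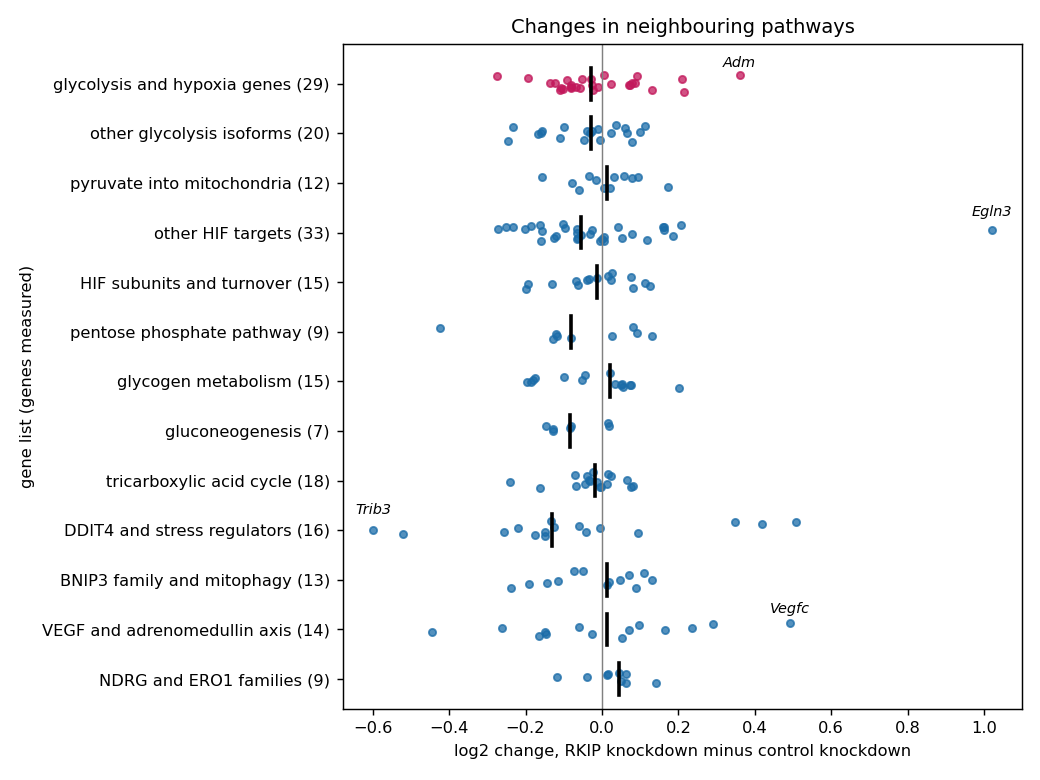
Log2 change (RKIP knockdown minus control knockdown) of every measured gene in the set of glycolysis and hypoxia genes (red) and in 12 further lists (blue), 1 point per gene, with the median of each list as a black bar; vertical scatter within a row has no meaning. Medians lie between -0.13 and 0.05, and Egln3 at 1.02 stands apart from the rest of its list.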

How the data were processed

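RNA of 6 samples of 168FARN cells (3 RKIP knockdown, 3 control knockdown) was measured on 1 array each. The deposited table holds log2 intensities for 41345 probe sets, and per the labels the authors used RMA and the oligo package, whose versions are not given in the sources used here. RMA corrects background, quantile-normalizes arrays and summarises probes, so a shift shared by all genes would not be seen. The number of arrays limits precision, and intensities of different probe sets are not comparable as levels.

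Of the probe sets, 23521 carried 1 symbol in the platform annotation, 1820 several and 16004 none. Those with 1 symbol were used, with the highest mean probe set per gene. Groups were compared with limma 3.58.1 in R 4.3.3 (lmFit, eBayes, no filter, Benjamini-Hochberg over 22180 genes), and the code was tested on simulated data. Values on all arrays are given for genes whose groups did not overlap, the 8 largest changes, Gapdh, Ldha, Pgk1, Slc2a1, Vegfa and Pkm, and, beyond that rule, Bnip3 and Ddit4. In each further list the called genes and the largest change above background were looked at. The genes and lists were chosen with earlier results of these data known. The study's methods name analysis of variance in Partek Genomics Suite, with thresholds of 1.5-fold and p under 0.01. Alternatives were a second quantile normalization, median centring, removal of low-signal genes, the mean of all probe sets, array weights, a variance trend together with robust fitting, a replicate block, analysis of variance, other thresholds and leaving out each array. RefSeq promoter windows were searched by exact match.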

Additional observations from a re-analysis of the deposited data

How the results depend on the processing

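Of 240 values computed under the alternatives for the 15 glycolysis and hypoxia genes tested singly, 230 kept their direction and side of the threshold. Removal of low-signal genes, the variance trend with robust fitting, the replicate block, analysis of variance and other thresholds leave the log2 change unaltered. Under these the direction could not turn, and only the side of the threshold could move. The genes called higher numbered 1 (Adm) without the lowest-signal genes and 1 with the variance trend and robust fitting together, and the genes called lower numbered 1 (Pfkl) with that pair; every other alternative gave 0. Some changes turned sign: Gapdh to 0.01 with median centring, Vegfa to -0.01 with a second quantile normalization and between -0.04 and 0.06 with 1 array left out, and Aldoc between -0.05 and 0.43 with 1 array left out. Arnt2 (-0.26 to 0.00) and Fbp2 (-0.26 to 0.06) did so too. With 1 array left out, Ldha ranged from -0.14 to -0.02, Ldhb from 0.10 to 0.32, Bnipl from -0.48 to -0.07, Rpia from 0.03 to 0.27, Eno4 from -0.25 to -0.07 and Pcx from 0.09 to 0.24.

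In the further lists, with 181 genes measured, genes called higher numbered 3 without the lowest-signal genes and 6 with the trend and robust fitting. They numbered 2 at an adjusted p under 0.1 and 1 with the cutoffs that the authors used. They numbered 0 with analysis of variance at an adjusted p under 0.05 or with any 1 array left out. Genes called lower numbered 10 with the trend and robust fitting. Of all genes, 0.785% rose and 0.271% fell without the lowest-signal genes. With the trend and robust fitting 1.38% rose and 0.96% fell. At an adjusted p under 0.1, 76 and 22 of 22180 did. Over all genes the higher calls ranged from 0 to 307 and the lower calls from 0 to 213. With 1 array left out, 0 to 4 of all genes were called higher and 0 lower, and analysis of variance called 4 and 3. The deviations of same-numbered arrays of the groups had correlations of -0.01, 0.07 and 0.10. RKIP knockdown replicates 2 and 3 correlated best with the control of their own number and replicate 1 did not. The labels do not tie the numbers to shared experiments, so whether they pair the samples is not known. With the replicate number as a replicate block, 0 of all genes were called higher and 0 lower by limma. The 0 calls in the further lists and among the glycolysis and hypoxia genes are therefore not particular to them. Egln3 had an adjusted p of 0.164 in that fit. Why the counts moved with these settings was not tested. With 3 arrays a group and a median SE of 0.07, changes near 0 cannot be told from none.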
